A study of Mus musculus with 2 samples.

Results

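Tchh, Neu2, A230005M16Rik and Tnxb were examined as 4 of the 32285 genes counted in single cells from mouse plantaris muscle. They had been picked because their level was far lower in quiescent-like muscle stem cells (MuSCs) of overloaded muscle than of sham muscle in these same libraries. That difference is therefore given as a description, and what it rests on, cell by cell, is the main subject here. Their working description, genes lost from MuSCs under overload, was only partly met. No gene was absent after overload, and the lower levels of Tchh and A230005M16Rik came down to 1 sham cell each.

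The cells came from Pax7rtTA; TRE-H2B-GFP mice aged 26 weeks, in which the Pax7 locus drives a doxycycline-dependent activator that labels MuSC nuclei with GFP. By the labels all mice, controls included, had drunk doxycycline at 2.0 mg/mL with 2% sucrose for 2 weeks. The methods give a higher sucrose concentration, and a washout period without doxycycline before surgery. The groups were sham surgery (Sham) and mechanical overload of the plantaris by synergist ablation (MOV), both collected 5 days after surgery, with 1 library of 3′ single-cell RNA each. The labels describe 1 mouse per group and the methods a pool of several, and the sort is given as VCAM+ CD31- CD45- SCA1- in one place and as GFP signal in another.

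A satellite cell, or MuSC, is the resident stem cell of the myofiber. It rests in quiescence under high Notch signaling and expression of Pax7, and on activation it induces Myod1 and enters the cell cycle. Neu2 encodes the cytosolic sialidase, which removes sialic acid from glycoproteins and glycolipids and is known from skeletal muscle. Tnxb encodes tenascin-X, a large matrix glycoprotein that binds fibrillar collagen and is made mostly by fibroblasts. Tchh encodes trichohyalin, a structural protein of the hair follicle inner root sheath with an S100-like calcium-binding end. A230005M16Rik is annotated as an antisense RNA, and no role is given for it here.

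With 1 library per condition no difference between conditions could be tested, and no p-value is given. Each interval is a 95% exact one and covers counting error only. Levels are a gene's UMIs (unique molecules) divided by all UMIs of the cell class and scaled as CPM, the usual counts per 1e6. The sham library gave 734 cells after filtering and the MOV library 2985. A cell was called a MuSC when Pax7, Myf5 and Myod1 together had at least 2 UMIs, which gave 108 sham and 1542 MOV MuSCs with median depths of 9545 and 25741 UMIs. The rule has soft edges, since 66 sham cells had 1 such UMI and 21 had exactly 2, and 119 MOV cells had exactly 2.

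The MuSC label was only partly borne out by the sort. Of the sham droplets 488 were rich in myofiber transcripts (Ckm, Myh4 and others, at least 1% of UMIs), against 51 in MOV. Cells with at least 2 UMIs of Pdgfra, the receptor that marks fibro-adipogenic progenitors, numbered 27 and 395. Pax7, Myf5 and Myod1 were detected in the MuSC classes of both libraries, at 110, 151 and 664 CPM in sham and 68.5, 139 and 196 CPM in MOV. Within the MuSCs, 15 sham and 6 MOV cells passed the myofiber limit, and 0 sham and 16 MOV cells held at least 2 Pdgfra UMIs. Quiescent-like MuSCs (at least 2 UMIs of Chrdl2, Calcr and Spry1, low in cell cycle genes and Myog) numbered 50 in sham and 276 in MOV, and cycling MuSCs 13 and 896. Committed MuSCs (at least 2 Myog UMIs, not cycling) numbered 0 and 89 and are not counted as non-cycling below. The quiescent-like sets were not matched between libraries. Their median depths were 8824 UMIs in sham and 15555 in MOV. Chrdl2 stood at 374 and 61.5 CPM, Calcr at 31.2 and 10.9, Spry1 at 178 and 168, and Myod1 at 776 and 100 CPM.

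The libraries shared 44 cell barcodes. Of these, 39 were deeper in sham, and the shallow copy held a median of 2.11% of the UMIs of the deep one. Among MuSCs the shared barcodes made up 14 of 108 sham cells, 9 of them cycling, and 3 of 1542 MOV cells. None was a quiescent-like cell in either library. Since the 14 sham cells were deep but held 1 UMI of Neu2 and none of the other genes, leaving them out raised the sham MuSC levels, and those values stand beside the results.

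Neu2 lies at chr1:87509889-87597845 (GRCm38, plus strand, GENCODE vM21) with 7 annotated transcripts, and 123 of its exonic bases lie opposite exons of Ngef. Tnxb lies at chr17:34670535-34719815 on the plus strand with up to 41 exons between Atf6b and C4b. Their start regions are shown because Neu2 and Tnxb are the members whose UMIs were spread over many cells. The sequences are RefSeq promoters of GRCm38.p6, from 250 bases before to 50 after the start. Capitals mark matches to the E-box CANNTG, the letters that myogenic factors bind, and to the AP-1 letters TGANTCA, searched on both strands. Of 3 listed Neu2 starts, the one nearest the end of the gene is shown, at chr1:87594300-87594599, and the Tnxb start at chr17:34670285-34670584.
Neu2: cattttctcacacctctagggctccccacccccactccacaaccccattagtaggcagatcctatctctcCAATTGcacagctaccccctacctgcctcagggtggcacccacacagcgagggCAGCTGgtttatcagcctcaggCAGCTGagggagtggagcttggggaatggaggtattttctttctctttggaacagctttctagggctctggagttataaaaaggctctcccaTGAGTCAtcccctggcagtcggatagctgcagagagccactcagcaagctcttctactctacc
Tnxb: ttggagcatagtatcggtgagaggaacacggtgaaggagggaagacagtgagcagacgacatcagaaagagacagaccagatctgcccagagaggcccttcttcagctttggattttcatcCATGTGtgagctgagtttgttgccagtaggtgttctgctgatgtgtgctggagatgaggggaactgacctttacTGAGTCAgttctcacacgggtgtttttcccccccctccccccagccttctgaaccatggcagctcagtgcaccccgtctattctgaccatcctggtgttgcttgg
This Neu2 window held 3 E-box letters and 1 AP-1 match, and the Tnxb window 1 of each, with no overlap between the motifs. Both motifs occurred together in 6.25% of 32851 promoter windows. An E-box match alone was common, at 72.3% of windows, and 17.6% held at least 3, while an AP-1 match was found in 7.81%. The other Neu2 windows held 0 and 1 E-box matches and the Tchh window 0, none of them with AP-1 letters. The RBPJ core TGGGAA matched once in the first Neu2 window and once for Tchh (25.6% of all windows). The TEAD core GGAATG matched 2 times in the first Neu2 window and once in the one shown (14.7% of windows). A230005M16Rik had no promoter entry. These are matches of letters and not sites, and 3′ counts cannot tell which Neu2 start was used.

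Neu2 was much lower in MOV MuSCs, and its sham UMIs were spread over many cells. It had 53 UMIs in 21 of 108 sham MuSCs (32.3 CPM, interval 24.2 to 42.2) and 44 UMIs in 28 of 1542 MOV MuSCs (0.854 CPM, 0.620 to 1.15). The log2 ratio of MOV over sham was -5.24 (-5.85 to -4.64). Among the 21 sham cells, 10 had 1 UMI, 4 had 2 and 7 had at least 3, up to 13. Without the cell with most Neu2 in each library the log2 ratio was -5.17. Without shared barcodes it was -6.01, since the sham level then stood at 55.5 CPM. All 4 members lay below a 4-fold fall in MuSCs, a mark that 429 of 13498 genes (3.18%) passed downward and 2.35% upward. The members were chosen on this contrast, so nothing is read from their count.

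Within the MuSCs, Neu2 stood lower in cycling cells than in the non-cycling classes. In sham it stood at 49.0 CPM in quiescent-like cells (22 UMIs in 12 of 50 cells) and at 56.5 CPM in the other non-cycling MuSCs (31 UMIs in 9 of 45 cells), with overlapping intervals. The 13 cycling sham MuSCs held no Neu2 UMI, which allows up to 4.65 CPM. In MOV the quiescent-like cells had 4.33 CPM (21 UMIs in 10 of 276 cells), the other non-cycling MuSCs 1.43 CPM and cycling MuSCs 0.413 CPM (16 UMIs in 13 of 896 cells). The 89 committed MOV MuSCs held no Neu2 UMI, which allows up to 0.983 CPM, so they were not told apart from cycling cells. The MOV quiescent-like level was above the cycling one by 3.39 on the log2 scale (2.38 to 4.43). Between libraries the quiescent-like ratio was -3.50 (-4.44 to -2.57), and over all non-cycling MuSCs it was -4.21 (-4.93 to -3.52).

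Neu2 was also compared between non-cycling MuSCs with and without a marker gene. Among non-cycling sham MuSCs, the 59 cells with a Pax7 UMI had 79.1 CPM of Neu2 (44 UMIs in 14 cells). The 36 cells without had 20.4 CPM (9 UMIs in 7 cells). Of the 44 UMIs, 13 lay in 1 cell, so the shares of cells with Neu2 were closer than the levels. A UMI of Chrdl2, a quiescence gene encoding a secreted BMP antagonist, gave 52.9 CPM with and 53.3 CPM without, a log2 difference of -0.01 (-0.89 to 0.83). In MOV, Neu2 stood at 12.8 CPM in the 111 non-cycling cells with Chrdl2 and 1.09 CPM in the 446 without, a log2 difference of 3.56 (2.34 to 4.89). The MOV value with Chrdl2 rested on 19 UMIs in 7 cells, 9 of them in 1 cell that also held 4 Chrdl2 UMIs. Whether the libraries differed in this was not tested.

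Myofiber transcripts were also measured beside Neu2. Sham myofiber droplets themselves held Neu2, with 37 UMIs in 34 of 488 droplets (13.1 CPM, interval 9.19 to 18). The sham MuSC level was above that by 1.31 on the log2 scale (0.67 to 1.95). MOV myofiber droplets had 2 UMIs (10.5 CPM), a log2 ratio to sham of -0.31 (-3.41 to 1.64). At 51 droplets no difference was detectable, and 21 of these had barcodes shared with sham. Leaving out shared barcodes left 1 MOV UMI (5.70 CPM) against 13.0 CPM in sham. The log2 ratio was then -1.19 (-6.54 to 1.39). The 8 myofiber markers summed to 14209 CPM in sham MuSCs and 464 CPM in MOV MuSCs, all 8 detected in both. In quiescent-like cells they were 718 and 274 CPM. Sham MuSCs with Neu2 had 1560 CPM of Myh4, the fast IIb myosin, against 329 CPM in those without. For Ckm, the muscle creatine kinase, the values were 5646 and 4646 CPM. Of the 304 Myh4 and 1100 Ckm UMIs in cells with Neu2, quiescent-like cells held 5 and 33. How much of the rest lay in cells above the myofiber limit was not measured. In quiescent-like cells Myh4 was 46.9 CPM with Neu2 and 55.5 CPM without, and Ckm 310 and 146 CPM. Leaving out cells at or above the myofiber limit left 52 of the 53 sham MuSC Neu2 UMIs, so nearly all of them lay in cells below it. The Neu2 ratio in MuSCs was then -5.47, so the difference was as large without cells above the limit.

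Other Neu2 signal in sham sat in cells that met no class rule. These 49 unassigned cells held 29 Neu2 UMIs in 5 cells, 10, 8 and 8 of them in 3 cells. One of those had 17 UMIs of Vcam1, the surface protein of the sort, with 1 of Myod1 and 1 of Chrdl2. The class stood at 87.2 CPM in sham and 3.53 CPM in MOV, a log2 ratio of -4.63 (-5.66 to -3.66). No Neu2 UMI was found in the 27 sham Pdgfra cells (up to 7.27 CPM allowed) or in sham tenocytes. MOV Pdgfra cells had 19 UMIs in 8 of 395 cells (1.27 CPM), 8 of them in 1 cell. The order of levels in sham ran from unassigned cells and the non-cycling MuSC classes, whose intervals overlapped, down to myofiber droplets.

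Tnxb was the member with a home outside the MuSCs, and it was lower under overload in Pdgfra cells and tenocytes as well as in MuSCs. Sham Pdgfra cells had 289 UMIs in 24 of 27 cells (701 CPM, 622 to 786) and MOV Pdgfra cells 2136 UMIs in 225 of 395 cells (143 CPM, 137 to 149). The log2 ratio was -2.29 (-2.47 to -2.11), past a 4-fold fall that 4.35% of 11955 genes passed in this class. Without shared barcodes it was -2.86. Dcn, the collagen-binding proteoglycan of these cells, stood at 18858 CPM in sham and 3923 CPM in MOV beside it. Cells with tenocyte markers had 160 CPM (41 UMIs) in sham and 20.3 CPM (163 UMIs) in MOV, a log2 ratio of -2.98 (-3.48 to -2.45), where 6.15% of 10758 genes passed a 4-fold fall.

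In MuSCs, Tnxb had 48 UMIs in 29 of 108 sham cells (29.2 CPM, 21.6 to 38.8) and 192 UMIs in 76 of 1542 MOV cells (3.73 CPM, 3.22 to 4.29). The log2 ratio was -2.97 (-3.44 to -2.48), and -3.77 without shared barcodes. No sham MuSC had more than 5 UMIs, 17 of the 29 cells had 1, and without the highest cell in each library the ratio was -3.01. The sham signal was therefore thin and wide, while in MOV 16 cells had at least 3 UMIs, up to 24. Quiescent-like cells had 71.3 CPM in sham (32 UMIs in 18 of 50 cells) and 15.3 CPM in MOV (74 UMIs in 21 of 276 cells), a log2 ratio of -2.22 (-2.84 to -1.58). This passed the 4-fold mark that 1.08% of 9389 genes passed downward and 4.74% upward in quiescent-like cells. It fell short of that mark with doublet-like cells kept (-1.99) and when thinned to 2000 UMIs (-1.66).

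Fibroblast genes were measured beside Tnxb in the cells that held it. Over all MuSCs Dcn was higher in cells with Tnxb in both libraries, at 571 against 123 CPM in sham and 775 against 144 CPM in MOV. The sham order rested on 1 cell, which held 127 of the 140 Dcn UMIs in Tnxb-positive sham MuSCs. None of the 108 sham MuSCs had a Pdgfra UMI, so Pdgfra stood at 0 in the 29 Tnxb-positive and the 79 negative cells alike. In the sham quiescent-like subset the order of Dcn was the other way, 72.9 CPM with Tnxb and 363 CPM without. In MOV quiescent-like cells Pdgfra was 114 CPM in the 21 cells with Tnxb and 0.668 CPM in the 255 without, Dcn 2565 and 211 CPM, and Col1a1, the main fibrillar collagen chain, 3757 and 256 CPM. The list of 5 fibro-adipogenic markers summed to 292 CPM in sham MuSCs, with 3 of 5 detected and Pdgfra and Pi16 at 0. In MOV MuSCs it summed to 272 CPM with all 5 detected. Leaving out the 55 MOV MuSCs with any Pdgfra UMI left 87 of 192 Tnxb UMIs, and the ratio was then -4.04 (-4.57 to -3.50). In quiescent-like cells it was -3.79 (-4.62 to -2.98), from 71.3 to 5.15 CPM. The MOV level of Tnxb in MuSCs thus moved with Pdgfra-bearing cells, and how their reads came to share a barcode with Myf5 or Pax7 was not tested.

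Tnxb was highest in the quiescent-like class among the MuSCs of each library. Sham quiescent-like cells were above the other non-cycling MuSCs by 1.29 on the log2 scale (0.38 to 2.25), at 71.3 against 29.2 CPM. The 13 sham cycling MuSCs had no Tnxb UMI. In MOV the quiescent-like cells were above the other non-cycling MuSCs by 1.77 (1.06 to 2.52) and above cycling MuSCs by 2.65 (2.19 to 3.11). Of the 74 MOV quiescent-like UMIs, 24 and 16 lay in 2 cells, and without cells with any Pdgfra UMI that level was 5.15 CPM. Non-cycling sham MuSCs with a Pax7 UMI had 70.1 CPM and those without 20.4 CPM. In MOV the level was 5.78 CPM in 422 cells with Pax7 (44 UMIs in 25 cells). In the 135 without Pax7 it was 24.3 CPM (52 UMIs in 8 cells). The log2 difference was -2.08 (-2.69 to -1.47), an interval that treats UMIs as separate counts. The share of cells with a Tnxb UMI was about the same with and without Pax7. Neu2 in the same MOV cells stood at 3.54 CPM with Pax7 and 0.468 CPM without, the second from 1 UMI.

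Across the sham classes of at least 20 cells Tnxb ran from Pdgfra cells at 701 CPM through tenocytes at 160 and unassigned cells at 111 CPM to quiescent-like MuSCs at 71.3 and other non-cycling MuSCs at 29.2 CPM. The intervals of tenocytes and unassigned cells overlapped, as did those of unassigned and quiescent-like cells. In MOV, Pdgfra cells were followed by unassigned cells at 63.8 CPM, immune cells at 34.1, Schwann cells at 23, mural cells at 22.7, tenocytes at 20.3 and quiescent-like MuSCs at 15.3 CPM. The intervals of Schwann and mural cells and tenocytes overlapped. That of immune cells also overlapped those of Schwann and mural cells. That of quiescent-like MuSCs overlapped those of Schwann cells, mural cells and tenocytes. Of the 44 immune UMIs 13 lay in 1 cell. Myofiber droplets held no Tnxb UMI in either library, 0 of 488 and 0 of 51. In unassigned cells the log2 ratio of MOV over sham was -0.80 (-1.30 to -0.26), and it changed sign to 0.52 with a myofiber limit of 5% and to 0.73 with no mitochondrial limit.

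**Figure D1:**
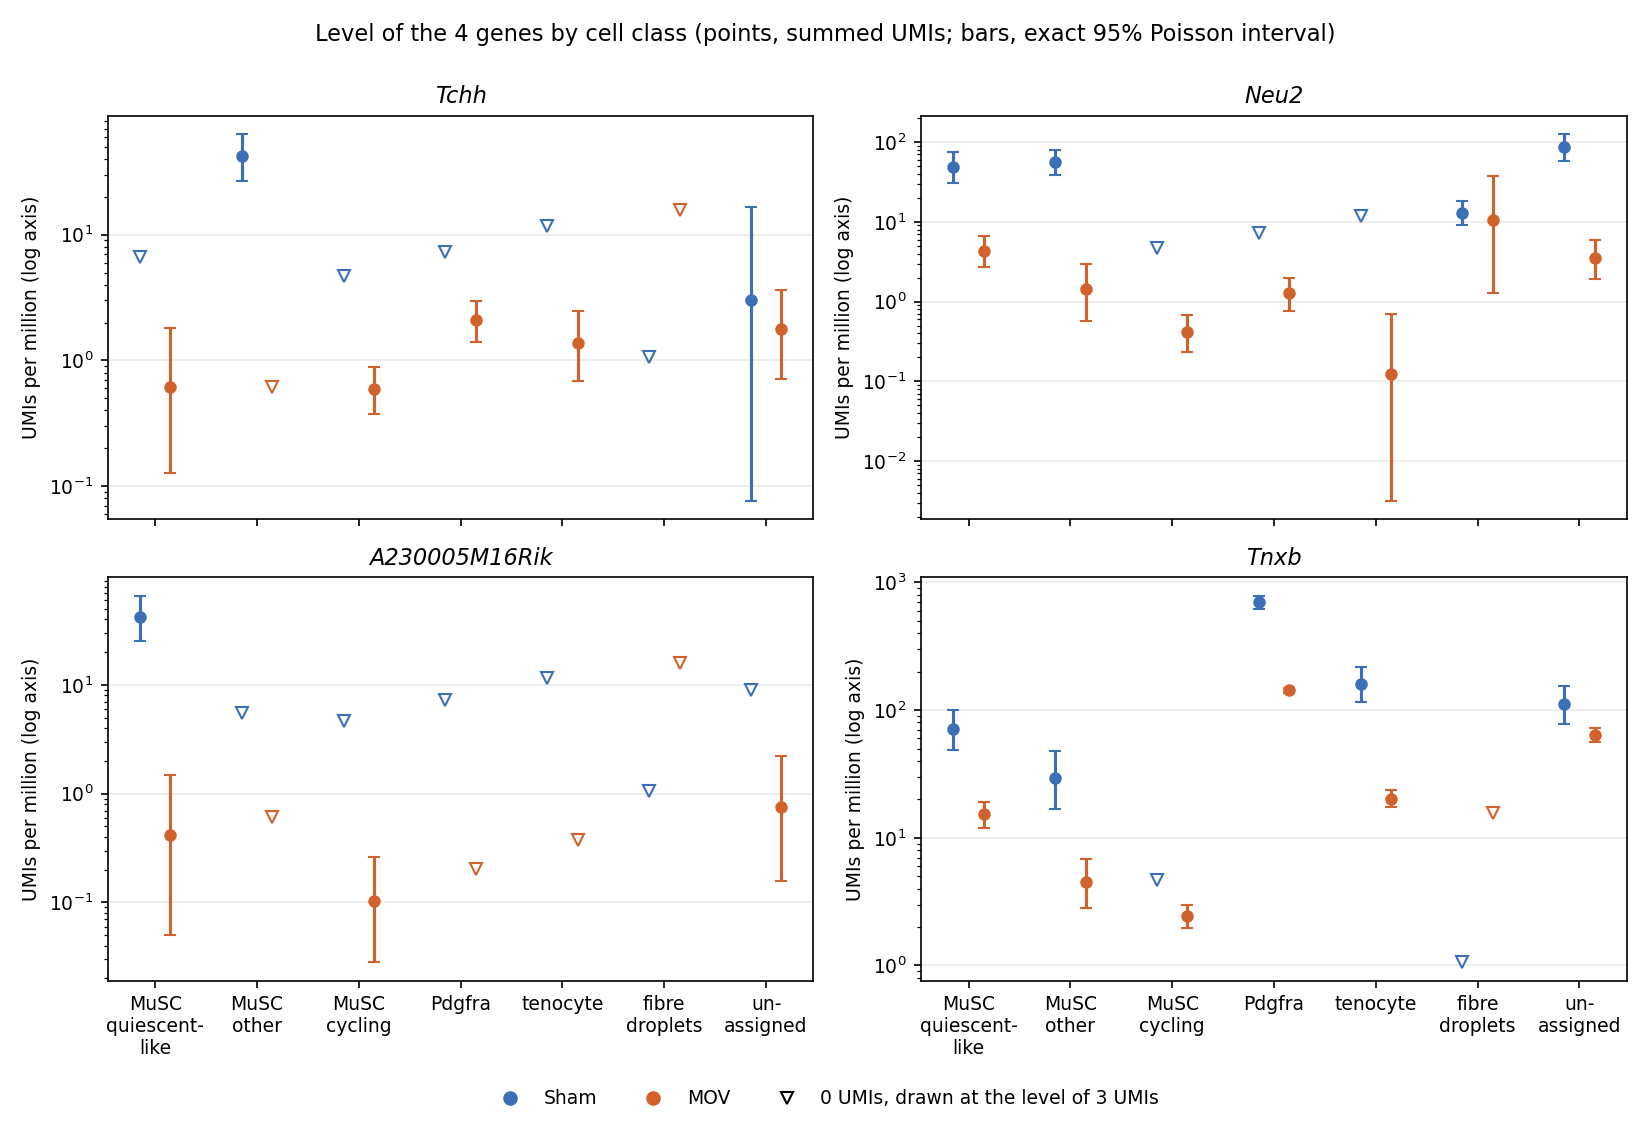
Level of each gene by cell class, in CPM on a log axis, for sham (blue) and MOV (orange), with bars for the 95% Poisson interval. Open triangles mark classes with 0 UMIs at the level 3 UMIs would give. Neu2 and Tnxb stood higher in sham in both non-cycling MuSC classes, Tnxb also in Pdgfra cells (701 and 143 CPM) and tenocytes, whereas the sham points of Tchh and A230005M16Rik in MuSCs rest on 1 cell with 23 and 1 with 18 UMIs.

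Tchh gave a large ratio from 1 cell. Sham MuSCs had 23 UMIs, all in 1 of 108 cells, which made 14.0 CPM (8.88 to 21.0). MOV MuSCs had 27 UMIs in 22 of 1542 cells, with at most 3 in a cell, which made 0.524 CPM (0.345 to 0.762). The log2 ratio was -4.74 (-5.60 to -3.87), an interval that treats the 23 UMIs as separate counts. The share of MuSCs with a Tchh UMI was 0.926% in sham (0.0234 to 5.05) and 1.43% in MOV. Without the highest cell in each library the sham MuSCs had 0 UMIs, and no ratio could be given. The 50 sham quiescent-like MuSCs had no Tchh UMI and the 276 of MOV had 3, so Tchh was not seen to be lower in the quiescent-like cells defined here.

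The sham Tchh cell belonged to the other non-cycling MuSCs. It had 8153 UMIs, 6.19% of them mitochondrial, with 62 UMIs of Myod1 and 1 each of Pax7 and Myf5, and none of Mki67 or Myog. It was also the highest Neu2 cell of the library, with 13 UMIs, and held 1 of Tnxb. The genes that led in it over the other sham MuSCs were Tchh, Hey1 (13 UMIs), a Notch target, Neu2, Tent5a and Kctd12. The other 107 sham MuSCs had no Tchh UMI at all. Elsewhere in sham, 1 mural and 1 unassigned cell had 1 UMI each.

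In MOV, Tchh was found at a low level in several classes. Pdgfra cells had 31 UMIs in 17 of 395 cells (2.08 CPM, 1.41 to 2.95), up to 5 in a cell, and MOV MuSCs stood below them (log2 ratio -1.99, -2.79 to -1.20). The 27 sham Pdgfra cells had none, but with up to 7.27 CPM allowed no direction could be read. Cycling MOV MuSCs had 23 UMIs in 18 cells (0.594 CPM) and tenocytes 11 UMIs (1.37 CPM). MOV MuSCs with Tchh were deep cells, with a median of 38270.5 UMIs against 25542.5 in those without. Tchh lies at chr3:93442330-93449077 on the plus strand, in 2 exons inside the span of the lincRNA Gm37245 on the other strand, and Gm37245, Rptn and Tchhl1 beside it had 0 UMIs in MuSCs and Pdgfra cells.

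A230005M16Rik likewise rested on 1 sham cell. Of its 19 sham UMIs in MuSCs 18 lay in 1 cell and 1 in another, both quiescent-like (11.6 CPM in MuSCs, 42.3 in quiescent-like cells). MOV MuSCs had 6 UMIs in 6 of 1542 cells (0.116 CPM), 2 of them quiescent-like. The log2 ratio was -6.64 (-8.25 to -5.25) in MuSCs and -6.68 (-9.83 to -4.63) in quiescent-like cells. Without the highest cell in each library 1 sham and 5 MOV UMIs were left in MuSCs, and the ratio of -2.65 had an interval from -5.81 to 2.91.

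That cell had 5069 UMIs, 5.90% mitochondrial, with 3 of Myf5, 2 of Spry1, 3 of Vcam1 and 1 of Neu2. Its leading genes over the other sham MuSCs were Upp1 (13 UMIs), Atf3 (24), Vegfa (5) and Rcan1 (9), and it held 416 UMIs of the metallothionein gene Mt1. Atf3 is an immediate stress response transcription factor and Vegfa an angiogenic factor. Both sham cells with A230005M16Rik also held Neu2, but no Tnxb or Tchh. No A230005M16Rik UMI was found in Pdgfra cells, myofiber droplets or tenocytes of either library. The gene lies at chr2:25705850-25709716 on the minus strand and shares 617 exonic bases with Bmyc on the plus strand. Bmyc was measured at 15.8 CPM in sham and 17.9 CPM in MOV MuSCs and had 0 UMIs in the cell with 18. Use of strand in the counting was not given in the sources used here, so reads of the pair may not be fully told apart.

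Among 690 genes with 19 to 23 UMIs in sham MuSCs, the median gene had 3 in its highest cell. Tchh and A230005M16Rik, whose values set this range, were among the 3 genes with at least 18 in 1 cell. Any member was detected in 40 of 108 sham MuSCs and 123 of 1542 MOV MuSCs. Neu2 and Tnxb shared 10 sham cells, with 11 holding Neu2 alone, 19 Tnxb alone and 68 neither. In MOV 4 cells had both, 24 Neu2 alone and 72 Tnxb alone.

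**Figure D2:**
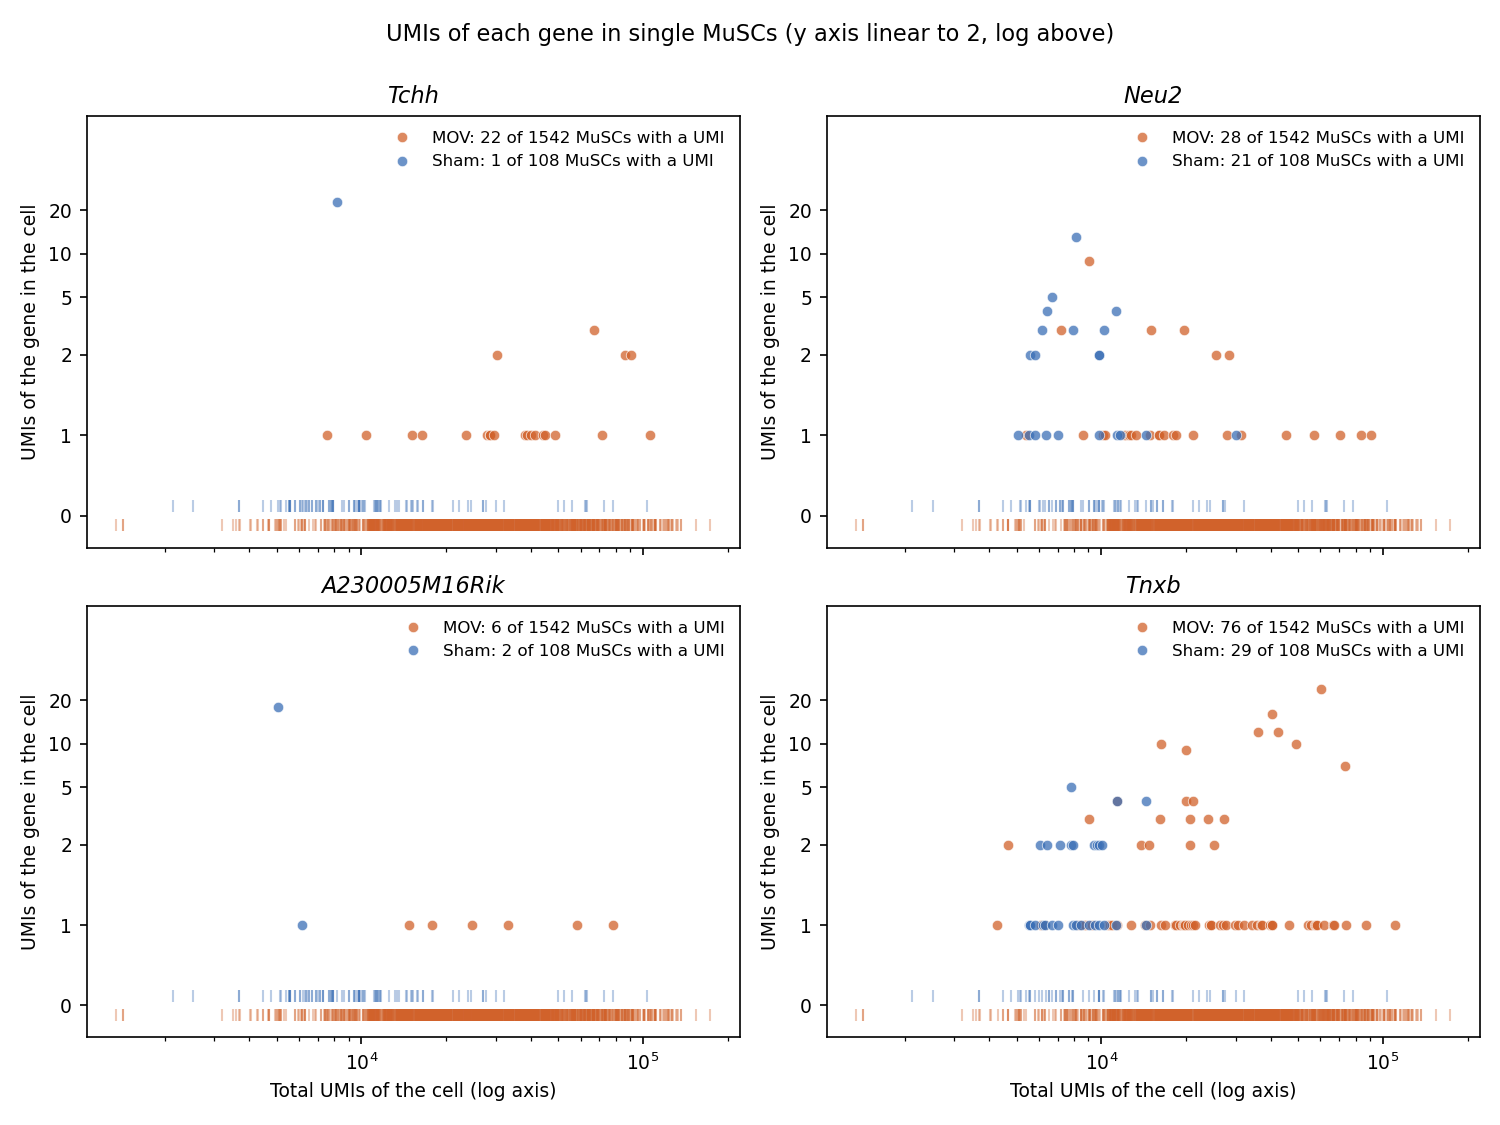
UMIs of each gene in single MuSCs (y axis, linear to 2 and log above) against the total UMIs of the cell (x axis, log), sham in blue and MOV in orange, with ticks for cells at 0. Tchh and A230005M16Rik show 1 high sham cell each (23 and 18 UMIs), while Neu2 and Tnxb show 21 and 29 sham cells with a UMI at shallower depth than most MOV cells.

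The MOV cells were deeper, so shares of cells were also compared at equal depth. Over all MuSCs, of which 896 of 1542 were cycling in MOV and 13 of 108 in sham, Neu2 and Tnxb were lower in MOV. With each cell thinned to 2000 UMIs, Tnxb was found in 9 of 108 sham MuSCs (8.33%, 3.88 to 15.2) and 16 of 1539 MOV MuSCs (1.04%, 0.595 to 1.68). The mean over all possible draws was 9.46% and 0.931%. Neu2 was found in 6 sham cells (5.56%, 2.07 to 11.7) and 5 MOV cells (0.325%, 0.106 to 0.757), with means of 8.55% and 0.336%. Unthinned, the shares had been 26.9% and 4.93% for Tnxb and 19.4% and 1.82% for Neu2. Tchh was left in 1 sham and 2 MOV cells and A230005M16Rik in 1 and 0. In quiescent-like MuSCs Neu2 was left in 3 of 50 sham cells (6.0%, 1.25 to 16.5) and 2 of 276 MOV cells (0.725%, 0.0879 to 2.59), and Tnxb in 4 (8.0%, 2.22 to 19.2) and 6 (2.17%, 0.802 to 4.67). These intervals overlapped. The ratios of the thinned UMIs had intervals from -4.61 to 0.72 for Neu2 and from -3.63 to 0.56 for Tnxb. In this draw no difference was therefore detectable in quiescent-like cells at 2000 UMIs. The mean over all possible draws was 9.34% in sham and 1.08% in MOV for Neu2, and 12.4% and 2.12% for Tnxb. Thinned to 4000 UMIs, quiescent-like Neu2 was found in 9 of 47 sham cells (19.1%, 9.15 to 33.3) and 3 of 276 MOV cells (1.09%, 0.225 to 3.14). Tnxb was found in 8 (17.0%, 7.65 to 30.8) and 12 (4.35%, 2.27 to 7.47). The intervals did not overlap there, narrowly so for Tnxb.

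Shares in other classes were set beside these as a guide to free RNA. Tnxb was found in 0 of 342 sham myofiber droplets at this depth, which allows up to 0.877%, at a median of 3474.5 UMIs before thinning. Neu2 was in 2 of 394 MOV Pdgfra cells (0.508%), and in 0 of 290 MOV tenocytes, which allows up to 1.03%, so at this depth its share in MOV MuSCs, 0.325%, was not told apart from either. By level, MOV quiescent-like MuSCs stood above MOV Pdgfra cells in Neu2 by 1.77 on the log2 scale (0.80 to 2.74), and MOV tenocytes held 1 UMI (0.125 CPM). The share of Tchh was 0.130% in MOV MuSCs (0.0157 to 0.469) and 0.508% in MOV Pdgfra cells (0.0615 to 1.82). These rested on 2 cells each and were not told apart. For Tnxb the Pdgfra cells gave 59.3% in sham and 21.1% in MOV at equal depth, in the same direction as their levels.

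Over all sham MuSCs the signal was higher in cells with a higher mitochondrial share. Sham MuSCs from 5% to 10% mitochondrial UMIs (64 cells) had 52.6 CPM of Neu2 and 46.2 CPM of Tnxb, and those below 5% (44 cells) had 13.9 CPM of each. The highest Tchh and A230005M16Rik cells were both above 5%. Below 5% the MOV MuSCs had 0.887 CPM of Neu2 and 3.65 CPM of Tnxb, so the ratios within that range were -3.96 and -1.95, smaller than over all MuSCs. Of the MOV MuSCs 1455 of 1542 lay below 5%, against 44 of 108 in sham. Over non-cycling sham MuSCs the order was the same, with Neu2 at 22.5 CPM below 5% and 88.2 CPM above, and Tnxb at 22.5 and 77.4 CPM. Within quiescent-like MuSCs below 5% the sham levels were 46.5 CPM of Neu2 (7 UMIs) and 73.1 CPM of Tnxb (11 UMIs). The ratios there were -3.38 and -2.21, close to those without the limit. The part of this measure in the results over all MuSCs was not tested.

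**Figure D3:**
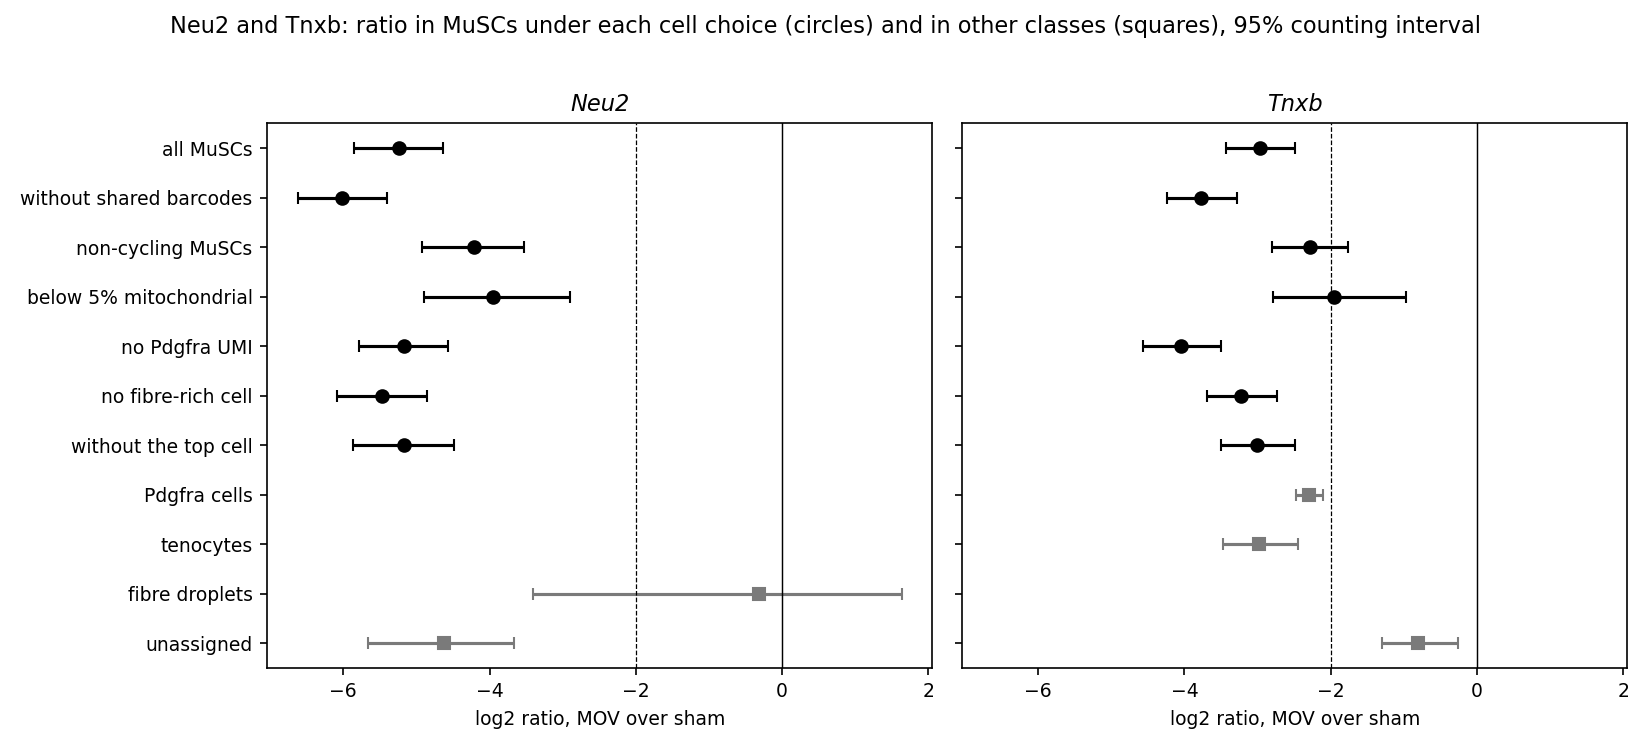
Log2 ratio of MOV over sham (x axis) for Neu2 and Tnxb with 95% counting intervals, in MuSCs under different choices of cells (circles) and in other classes (squares). The solid line marks no difference and the dashed line a 4-fold fall. Among the choices drawn, Neu2 in MuSCs lay between -6.01 and -3.96 and Tnxb between -4.04 and -1.95 (a rule of at least 1 UMI, not drawn, gave -1.53 for Tnxb), and Tnxb was also lower in Pdgfra cells and tenocytes.

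The other genes of each member's pathway were taken from lists. A list is given by how many members with at least 20 UMIs in MuSCs lay past 4-fold, beside a median log2 ratio of 0.08 over all 13498 genes. Of the 4 sialidases, Neu1, the lysosomal enzyme, stood at 2.44 CPM in sham (4 UMIs) and 4.48 CPM in MOV MuSCs. Neu3 had 1 and 16 UMIs and Neu4 none. Of 27 genes of sialic acid synthesis and transfer 19 were measured at that depth, with a median of 0.61. St3gal6, an alpha-2,3-sialyltransferase, was the 1 past a 4-fold fall, at 31.7 and 1.65 CPM (log2 ratio -4.26, -4.78 to -3.74). Its sham UMIs numbered 52 in 12 cells, 22 of them in 1 cell, and sham myofiber droplets held it at 146 CPM. St8sia2, a polysialyltransferase of the neural cell adhesion molecule, was the 1 past a 4-fold rise, at 3.05 and 13.1 CPM from 5 and 674 UMIs. Nans, which makes sialic acid phosphate, stood at 18.3 and 54.7 CPM, and Cmas, which activates sialic acid, at 14.0 and 32.1 CPM.

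Tnxb was the 1 tenascin past a 4-fold fall. Tnc, the tenascin of remodeling tissue, stood at 49.9 CPM in sham and 130 CPM in MOV MuSCs, a log2 ratio of 1.38 (1.07 to 1.72), the opposite side of Tnxb. Tnn had 0 and 42 UMIs and Tnr 0 and 1. Among 16 collagen fibril genes and their partners 0 lay past a 4-fold fall and 6 past a 4-fold rise, with a median of 1.29, where 3.18% and 2.35% of all genes lay past these marks. The 5 tenocyte markers in MuSCs summed to 31.7 CPM in sham, with 4 of 5 detected and Tnmd at 0, and to 155 CPM in MOV with all 5 detected, and their part in this was not tested. Col1a1 stood at 35.9 and 328 CPM (3.19), Col1a2 at 85.3 and 564 CPM, and Lum, a fibril-binding proteoglycan, at 2.44 and 17.2 CPM. Dpt, encoding dermatopontin, stood at 98.7 and 30.8 CPM (-1.68, -1.92 to -1.44), short of 4-fold. Dpt was found in 65 of 108 sham MuSCs.

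No relative of Tchh was detected. The other 6 genes of the S100-fused family, filaggrin and repetin among them, had no UMI in MuSCs of either library. Among 12 enzymes that modify trichohyalin, 4 reached 20 UMIs, and Padi2, a peptidylarginine deiminase, was the 1 past a 4-fold fall, on 5 sham UMIs in 3 cells (3.05 and 0.485 CPM). Tgm2, the tissue transglutaminase, stood at 5.48 and 4.79 CPM. Padi3 and Tgm1, the enzymes of the hair follicle and skin, had 0 sham UMIs and 22 and 28 in MOV. The list of 20 quiescence genes had 4 past a 4-fold fall and 0 past a rise, against 3.18% and 2.35% of all genes, with a median of -0.67. Those 4 were Chrdl2 (111 and 8.94 CPM, -3.63), Tgfbr3, a co-receptor of TGF-beta (-2.67), Apoe (-2.27) and Calcr, the calcitonin receptor (-2.18). Pax7 stood at 110 and 68.5 CPM.

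**Figure D4:**
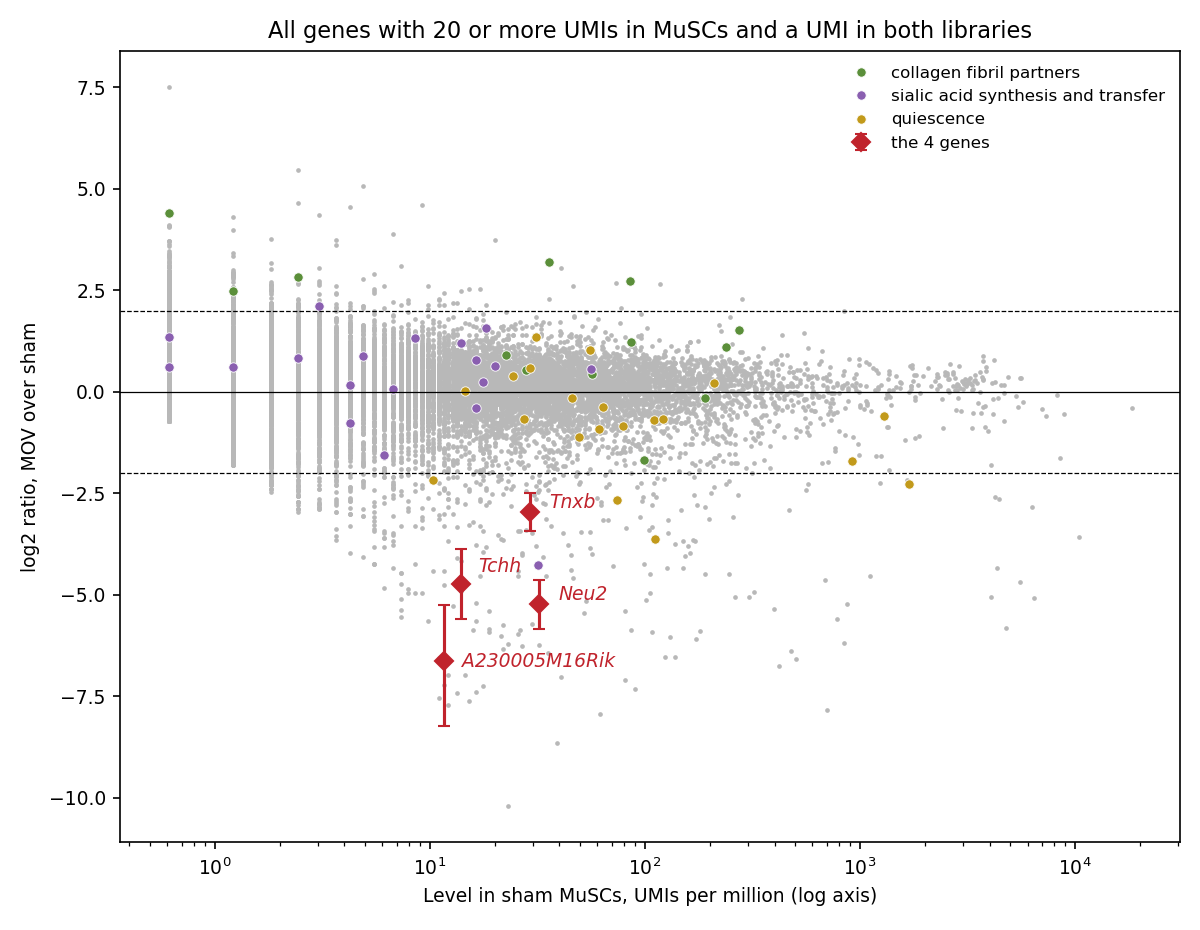
Log2 ratio of MOV over sham in MuSCs (y axis) against the sham level in CPM (x axis, log) for each gene with at least 20 UMIs in all and 1 in both libraries. Red diamonds with 95% counting intervals mark the 4 genes, between -6.64 and -2.97, and colored points mark 3 gene lists. Dashed lines mark 4-fold changes, and the collagen genes lie mostly above the line of no change.

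The genes whose levels ran most like each member were ranked over the 14 class and library pairs with at least 20 cells, by Pearson correlation of log2(CPM + 1). For Tnxb these were C1ra (r = 0.940), a complement protease, Sidt2 (0.933), Nfatc1 (0.921), Ank2 (0.917) and Enpp2 (0.912), the lysophospholipase autotaxin. C1ra stood at 318 CPM in sham and 88.5 CPM in MOV Pdgfra cells, and Enpp2 at 233 and 21.0 CPM. For Neu2 they were Fam160a1 (0.934), Eif3j1 (0.904), Slc38a3 (0.880), Insig2 (0.861) and Mlxipl (0.851). Eif3j1 was well measured, at 502 and 267 CPM in sham and MOV MuSCs, whereas Fam160a1 had 80 UMIs in all. For Tchh, Zfp619 (0.875) came first, then Gdnf, 1700109H08Rik, Gm17477 and Gm4117. For A230005M16Rik it was Spdya (0.913), then Gm26652, Gm42851, 1700012B09Rik and Taf9. The points share libraries and differ in depth, and the last 2 rankings rest on few UMIs. Neu2 and Tnxb themselves gave r = -0.21 over the same points.

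Some genes beside the members were also counted in MuSCs. Ngef, opposite Neu2, had 0.609 and 0.524 CPM in sham and MOV MuSCs. Atf6b and C4b, on either side of Tnxb, had 11 and 15.1 CPM and 4.87 and 4.35 CPM. Inpp5d, on the far side of Neu2, had 0 and 7 UMIs in MuSCs, and 4 UMIs (9.70 CPM) in sham and 16 (1.07 CPM) in MOV Pdgfra cells. In sham, strata of cells without 2 Pdgfra UMIs and below the myofiber limit gave Neu2 136 CPM at 1 myogenic UMI, 10.1 at 2, 137 at 3 to 5 and 23 above 5. Tnxb in the same strata was 51.9, 30.3, 95 and 24.9 CPM, and 100.1 CPM in cells with none. In MOV the Neu2 strata ran at 3.43, 6.46, 1.21 and 0.534 CPM, each below sham although the intervals at 2 UMIs overlapped, and Tnxb at 20, 9.94, 3.09 and 1.41 CPM.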

How the data were processed

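Single-cell RNA sequencing of sorted plantaris cells was analyzed from 1 sham and 1 MOV library. The authors aligned reads to mm10 with Cell Ranger 6.0.0 (R 4.0.2 and Seurat 4.0.2 are also named in the submitters' processing notes) and deposited filtered matrices of raw UMI counts, with no normalization, for 32285 genes, of which 99.6% of identifiers matched GENCODE vM21. The matrices held 1100 sham and 3854 MOV barcodes with 7302661 and 88498487 UMIs. Cells below 10% mitochondrial UMIs were kept (738 and 3060), and 4 and 75 doublet-like cells were removed as the top scorers against simulated doublets at 0.8% per 1000 cells.

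Cells were classed in order as MuSCs, Pdgfra cells, myofiber droplets, other types (at least 3 UMIs from 2 markers) and unassigned. UMIs were summed per class and library, with exact Poisson intervals for levels and exact conditional (Clopper-Pearson) intervals for ratios and shares. A gene at 0 in a library was set against a floor of 3 UMIs, or at no change where that floor lay on the other side. Genes with at least 20 UMIs in both libraries together counted toward the shares past 4-fold. The interval code was tested on simulated data with known ratios. TMM (edgeR 4.0.16) and median-of-ratios factors (DESeq2 1.42.0, R 4.3.3) served only as alternative scalings, and no differential test was run, since each condition had 1 library. Python 3.11.15, numpy 2.4.6, scipy 1.17.1, pandas 2.3.3, scikit-learn 1.9.0 and matplotlib 3.10.9 were used.

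The 4 members, the 7 gene lists and the markers were chosen with earlier results of these data known. The text names the members, list genes with at least 20 UMIs in MuSCs (others by UMIs), adjacent or overlapping genes, and the 5 genes most like each member among those with at least 50 UMIs. Genes leading in a single cell, and Pdgfra, Dcn, Col1a1 and Myh4 beside the members, were chosen after values were seen. Promoters came from RefSeq (GRCm38.p6) and matched 3 of 4 members.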

Additional observations from a re-analysis of the deposited data

How the results depend on the processing

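No paired analysis was possible because each condition had 1 library. Values are log2 ratios of MOV over sham unless named otherwise. In MuSCs each alternative that gave a ratio kept it below 0, from -7.88 to -2.65 for A230005M16Rik, -6.01 to -3.96 for Neu2, -6.23 to -4.29 for Tchh and -4.04 to -1.53 for Tnxb. Only Tnxb came short of 4-fold, in 2 of 17. The cause of the shifts was not tested. Leaving out shared barcodes gave -6.01 for Neu2 and -3.77 for Tnxb, and -2.86 for Tnxb in Pdgfra cells. Non-cycling MuSCs gave -6.23 for Tchh, -4.21 for Neu2 and -2.29 for Tnxb, and a rule without Myod1 gave -5.60 for Tchh and -3.68 for Tnxb. A mitochondrial limit of 5% gave -3.96 for Neu2 and -1.95 for Tnxb. For Tnxb, keeping doublet-like cells gave -2.44, a rule of at least 1 UMI -1.53 and of 3 UMIs -3.79, leaving out cells with at least 2 Pdgfra UMIs -3.88 and with any -4.04. Thinning gave -4.35 for Neu2 and -3.83 for A230005M16Rik (3 sham and 0 MOV UMIs, set at the floor of 3), and leaving out the highest cell -2.65 for the latter.

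In quiescent-like MuSCs the rule of 3 UMIs gave -4.47 for Neu2 and -3.16 for Tnxb, thinning -2.05 for Neu2 and -2.46 for A230005M16Rik (at the same floor), and leaving out the highest cell -3.44 for A230005M16Rik. Tnxb was -3.75 without cells of at least 2 Pdgfra UMIs and -3.79 without any. Asking for quiescence genes at or above 200 CPM in place of 2 UMIs gave -2.69 for Neu2 and -2.60 for Tnxb. Tchh had no ratio there, nor in MuSCs at the 5% limit or without its highest cell, and A230005M16Rik had none at the 5% limit, since sham was at 0. A myofiber limit of 5% gave 1.96 for Neu2 in myofiber droplets and -3.45 in unassigned cells. Tnxb in unassigned cells changed sign, to 0.52 there and 0.73 with no mitochondrial limit, under which Neu2 was -3.04, and was -1.35 with a Pdgfra rule of 1 UMI. Thinned to 4000 UMIs, 15.4% of sham MuSCs had Neu2 and 15.4% Tnxb, and with no mitochondrial limit 16.2% had Tnxb. Genes past a 4-fold fall numbered 1114 with no filter and 280 at 50 UMIs, against 429. Leaving out shared barcodes, cells with any Pdgfra UMI, cycling cells or Myod1 was chosen after seeing the data. With 1 library per condition, differences between animals, surgeries or preparations cannot be told apart from overload.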

Other observations

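Barcodes at or above 10% mitochondrial UMIs, which entered no comparison, numbered 362 in sham and 794 in MOV. Tnxb stood at 31.5 CPM in the sham and 31.0 CPM in the MOV barcodes, and Neu2 at 6.71 and 0.301 CPM. Tchh had 1 and 3 UMIs there and A230005M16Rik none.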
